A study of Mus musculus with 2 samples.

Results

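Retinoic acid, the active form of vitamin A, is made and used inside epidermal cells by a short chain of proteins, and the genes described here encode 9 of them: the retinal dehydrogenases Aldh1a3 and Aldh1a2, the retinol dehydrogenases Rdh10 and Dhrs9, the retinal reductase Dhrs3, the binding protein Crabp2, and the nuclear receptors Rara, Rarg and Rxra. They are 9 of the 47719 genes of the table and were chosen by name around Aldh1a3, which had been selected on its read counts in these same libraries. RNA was sequenced from 1 culture of Pp6fl/fl keratinocytes and 1 of K5.Pp6fl/fl keratinocytes, both derived from mouse tails and grown for 3 days. The mice were C57BL/6J and 8 weeks old. Both genotypes carry the floxed Pp6 allele, and Pp6, named Ppp6c in the table, encodes the catalytic subunit of protein phosphatase 6. K5 stands for the keratin 5 promoter, active in basal keratinocytes, so deletion in these animals is tied to that cell layer and its descendants. The labels do not say how many mice gave each culture. With 1 library per genotype the spread between cultures is unknown, so no difference below has a p-value and every interval (95%) describes read counting alone.

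Retinol taken up by a cell is stored as esters or oxidised to retinal by retinol dehydrogenases, a reversible step, and retinal is then oxidised irreversibly to retinoic acid by the ALDH1A enzymes. CRABP2 passes retinoic acid to the retinoic acid receptors (RAR), which act on DNA as pairs with retinoid X receptors (RXR), while FABP5 can carry it to another receptor, PPAR delta. CYP26 enzymes break retinoic acid down. In epidermis retinoids are known for altering keratinocyte growth and for holding back late differentiation genes such as loricrin.

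Receptor pairs bind repeated hexamers in the DNA of their target genes, and Rarb and Cyp26a1 are textbook targets whose promoters hold the repeat with a spacing of 5 bases. Both promoters are shown because they let a reader see the element beside the read counts of the genes that carry it. The windows are from RefSeq (GRCm38.p6), 5′ to 3′ along the gene's strand, 250 bases before to 50 after the annotated start. Capitals mark the 17-base element.
Rarb, chr14:16575427-16575726, minus strand: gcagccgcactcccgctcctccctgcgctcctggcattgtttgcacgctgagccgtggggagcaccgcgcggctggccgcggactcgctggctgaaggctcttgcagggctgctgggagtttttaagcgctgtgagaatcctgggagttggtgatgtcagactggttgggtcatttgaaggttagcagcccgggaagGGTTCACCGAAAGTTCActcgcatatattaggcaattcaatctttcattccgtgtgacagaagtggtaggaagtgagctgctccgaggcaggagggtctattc
Cyp26a1, chr19:37697558-37697857, plus strand: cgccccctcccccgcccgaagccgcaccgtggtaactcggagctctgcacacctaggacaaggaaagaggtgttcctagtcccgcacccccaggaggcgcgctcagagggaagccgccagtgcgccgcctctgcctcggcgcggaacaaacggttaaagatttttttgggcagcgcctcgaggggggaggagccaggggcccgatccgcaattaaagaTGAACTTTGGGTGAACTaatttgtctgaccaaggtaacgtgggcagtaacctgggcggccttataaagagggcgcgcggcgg
The search used the consensus hexamer AGGTCA together with its relatives GGGTCA, then AGTTCA, and finally GGTTCA. Any pair of them in the same orientation, on either strand and spaced by 1, 2 or 5 bases, counted as a match. Of 32851 promoter windows, 0.0974% held the repeat spaced by 5 bases, 0.268% that spaced by 2 and 0.222% that spaced by 1. RefSeq windows were matched for 6 of the 9 genes (Aldh1a2, Dhrs3, Dhrs9, Rara, Rarg and Rxra, 13 windows in all), and 0 of these windows held any of the 3 repeats. With so small a share of all windows holding a repeat, 0 of 13 says little about these genes. No window was matched for Aldh1a3, Crabp2 or Rdh10, so the search does not cover them. The genes behind the printed promoters were nearly silent in the cultures. Rarb had 5 Pp6fl/fl reads and 2 K5.Pp6fl/fl reads, a fold of 0.445 (0.0424 to 2.72), and Cyp26a1 had 0 reads in both, where the limit that a count of 0 allows is 0.155 and 0.173 CPM, the reads of a gene scaled to a common library size.

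The data behind these values are estimated reads per gene, with totals of 19374773 (Pp6fl/fl) and 17361271 (K5.Pp6fl/fl), and CPM were scaled by the TMM method. The targeted gene was lower in the library labelled K5.Pp6fl/fl: Ppp6c had 1074 and 707 reads, a fold of 0.733 (0.666 to 0.807). Per length, in the deposited FPKM, the Ppp6c ratio was 0.548 (30.6 and 16.8). The table has no values per exon, so reads from undeleted parts of the gene count too. Why Ppp6c reads remained in K5.Pp6fl/fl was not tested. The 9 keratinocyte markers, all expressed, summed to 93094 CPM in Pp6fl/fl and 89048 CPM in K5.Pp6fl/fl, led by Krt14, Krt6a and Krt5. Of the 9 fibroblast markers only Vim reached 1 CPM (0.982 and 1.21 CPM), Lum was at 0 in both libraries, and the list summed to 1.81 and 2.19 CPM. The 9 immune markers summed to 0.155 and 0.403 CPM with 7 at 0 in both libraries, Ptprc among them, and the 5 endothelial markers to 0.775 and 1.5 CPM. Melanocyte markers were low but present, with 5 of 7 expressed and a sum of 14.7 CPM in Pp6fl/fl and 21.7 CPM in K5.Pp6fl/fl. The 3 most abundant were Mitf (7.03 and 6.33 CPM), Tyrp1 (2.48 and 4.95 CPM) and Pmel (2.17 and 4.83 CPM). The sebocyte list summed to 444 and 483 CPM, mostly Plin2 and Scd1, with Cidea next. On that list Awat1 had 0 reads in both libraries, Mc5r had 1 and 0, and Elovl3 had 1 and 2. The Merkel cell list summed to 9.40 and 12.5 CPM, all but a trace from Krt18 and Krt8, with its defining marker Krt20 at 0. The part of melanocytes or other cells in the results below was not tested. In RNA from a whole culture, a change in the number of cells of a type and a change in RNA per cell cannot be told apart.

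Aldh1a3, which acts at the last step of retinoic acid synthesis, stood about 4-fold higher in K5.Pp6fl/fl, and Rdh10, Dhrs9 and Dhrs3 of the step before it were at folds from 0.851 to 1.11. Crabp2 was 2.06-fold higher, and the receptors differed little. By the rule used here a gene is past 2-fold when its log2 ratio, taken after adding 0.5 CPM to both values, is at least 1 in size, its larger value is at least 1 CPM and its counting interval excludes 1. Of the 9 genes, 8 reached 1 CPM in a library. Past the rule were 2 genes higher, Aldh1a3 and Crabp2, and 0 lower, where 0.811% of 12325 expressed genes were higher and 0.195% lower. The genes were chosen with this contrast in view, so these counts are a description.

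**Figure D1:**
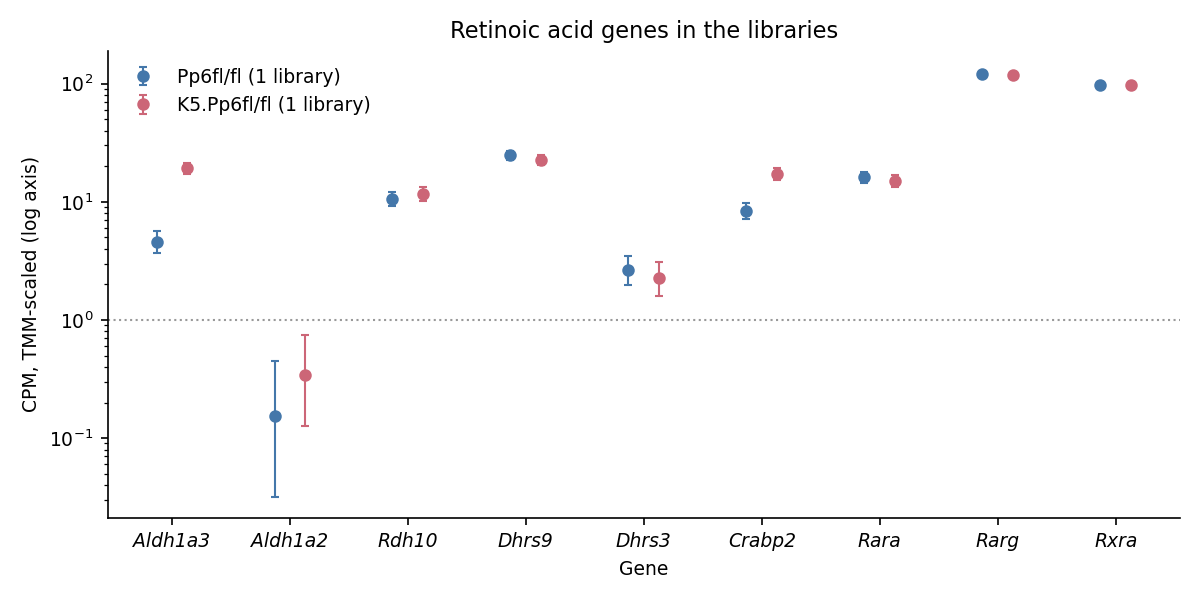
Level of each of the 9 genes in CPM (log axis) in the Pp6fl/fl library (blue) and the K5.Pp6fl/fl library (red), 1 library each, with exact Poisson intervals (95%) as bars and 1 CPM as a dotted line. Aldh1a3 (4.60 and 19.3 CPM) and Crabp2 (8.32 and 17.1 CPM) have intervals that lie apart, and the intervals of the other 7 genes overlap between the libraries.

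Aldh1a3 (ENSMUSG00000015134) oxidises retinal to retinoic acid. It had 89 reads in Pp6fl/fl (exact Poisson interval 71.5 to 110) and 335 in K5.Pp6fl/fl (300 to 373), which is 4.60 and 19.3 CPM. The fold was 4.19 (3.31 to 5.36), and the log2 ratio of 1.96 ranked 3rd from the top among 10254 genes at 5 CPM or more in a library. Per length, in the deposited FPKM values of the authors, Aldh1a3 went from 1.98 to 8.32, the same 4.19-fold difference. Its place among expressed genes, ordered by FPKM, was percentile 13.8 in Pp6fl/fl and 36.2 in K5.Pp6fl/fl, so a gene of low rank reached a middling one. For Aldh1a3 the authors' deposited table gives 2.01 as the log2 fold change, computed from the same single library per genotype. No other annotated gene overlaps Aldh1a3, so its reads are not shared with an opposite strand.

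The other retinal dehydrogenase genes added little. Aldh1a2, the main enzyme of retinoic acid synthesis in many embryonic tissues, had 3 and 6 reads, or 0.155 and 0.345 CPM. Its fold of 2.23 has an interval from 0.476 to 13.8 and shows no direction at this depth. Aldh1a1 had 0 reads in both libraries, Aldh1a7 had 0 and 1, and Aldh8a1 had 1 and 2. Per length Aldh1a3 thus made up 89.6% of the summed FPKM of these 5 genes in Pp6fl/fl and 96.9% in K5.Pp6fl/fl. Over the 5 genes together the reads came to 93 and 344, a fold of 4.12 (3.27 to 5.24). Among 15 other aldehyde dehydrogenases, 14 were expressed and 0 were past 2-fold in either direction, where 1.01% of all expressed genes were. Their median log2 ratio was 0.05, where it was -0.01 over all expressed genes. Short of 2-fold, the intervals of 5 of the 14 lay above 1 and of 0 below, against 16.6% and 17.4% of all expressed genes. These 5, named after their values were seen, were Aldh1l1 (1.55-fold), Aldh3b2 (1.51-fold), Aldh1l2 (1.46-fold), Aldh2 (1.17-fold) and Aldh18a1 (1.07-fold). Aldh18a1 (161 and 173 CPM), Aldh2 (68.7 and 80.1 CPM) and Aldh3a2 (74.2 and 70.8 CPM) were the most abundant of them. Over both lists, 1 of the 15 expressed aldehyde dehydrogenase genes was past the rule and 6 had an interval above 1. The 1 past the rule was Aldh1a3, which was selected on its read counts in these libraries.

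**Figure D2:**
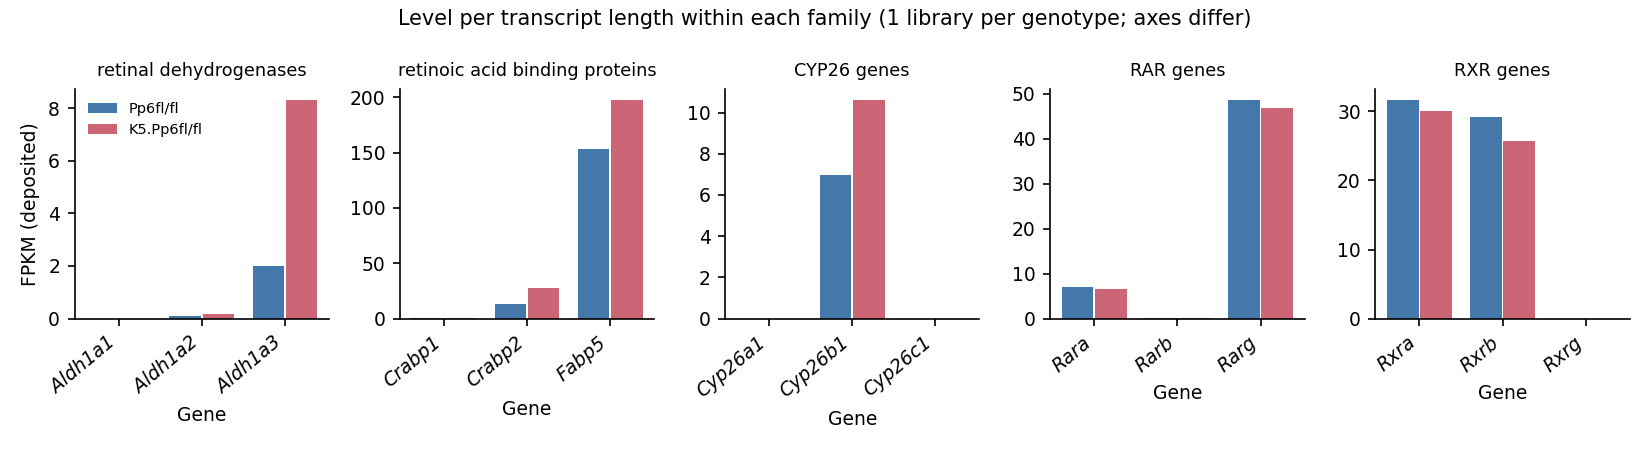
Deposited FPKM of the authors (level per transcript length, linear axes that start at 0 and differ between panels) for 5 gene families in Pp6fl/fl (blue bars) and K5.Pp6fl/fl (red bars), 1 library each with no error bars. A single gene carries nearly all of the ALDH1A and CYP26 level, Fabp5 exceeds Crabp2, and Rarg exceeds Rara.

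Rdh10, Dhrs9 and Dhrs3, which act at the step before, between retinol and retinal, had folds from 0.851 to 1.11. Rdh10, the retinol dehydrogenase that supplies retinal in the embryo, had 204 reads in each library, or 10.5 and 11.7 CPM, and its fold was 1.11 (0.912 to 1.36). Dhrs9, which also oxidises retinol and was the more abundant of the pair per length, was at 24.8 and 22.6 CPM, with a fold of 0.912 (0.796 to 1.04). Dhrs3, which turns retinal back into retinol and partners with Rdh10, had 51 and 39 reads, or 2.64 and 2.24 CPM, with a fold of 0.851 (0.546 to 1.32). All 3 intervals include 1, as did those of 8139 of the 12325 expressed genes. By FPKM Dhrs3 was lower, 2.18 and 1.49, a ratio of 0.682. The authors' FPKM divides by an effective length that can differ between libraries. In FPKM the level of Aldh1a3 was 0.319 times that of Dhrs9 in Pp6fl/fl and 1.46 times in K5.Pp6fl/fl, so their order turned. Dhrs9 itself was at 6.23 and 5.70 FPKM. The turn thus restates the difference in Aldh1a3, which was selected on its read counts in these libraries.

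In the wider list of 21 retinol dehydrogenases and retinal reductases, 16 genes were expressed, with a median log2 ratio of -0.02. Of these, 0 were past 2-fold, where 1.01% of all expressed genes were in either direction. The intervals of 2 genes lay above 1 and that of 1 gene below, against 16.6% and 17.4% of all expressed genes. The pair above 1 was Sdr16c5 and Sdr16c6, which encode the epidermal retinol dehydrogenases RDHE2 and RDHE2S and were named after their values were seen. Sdr16c5 was at 14.0 and 22.6 CPM, with a fold of 1.62 (1.38 to 1.90). Sdr16c6 was at 5.79 and 9.67 CPM, with a fold of 1.67 (1.31 to 2.14). Both were thus higher in K5.Pp6fl/fl by a similar factor, short of 2-fold. The genes can share reads, so their folds may not be separate, and summed the fold was 1.63 (1.43 to 1.87). The gene below 1 was Akr1b8, an aldo-keto reductase, at 87.6 and 71.1 CPM, with a fold of 0.811 (0.753 to 0.874). The abundant Rdh11 and Adh5 were at 1.03 (0.977 to 1.09) and 0.984 (0.923 to 1.05). Of all 12325 expressed genes, 1.01% were past 2-fold in either direction and the intervals of 8139 included 1. Of 15 genes of retinol uptake and storage 6 were expressed, 0 were past 2-fold and all 6 intervals included 1. Scarb1, Lipe and Dgat1 led this list at folds of 1.10, 1.12 and 0.865. The retinol transporter gene Stra6 (21 and 16 reads) and the esterifying enzyme gene Lrat (9 and 11) lay near or under 1 CPM, where a difference of this size could not be detected.

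**Figure D3:**
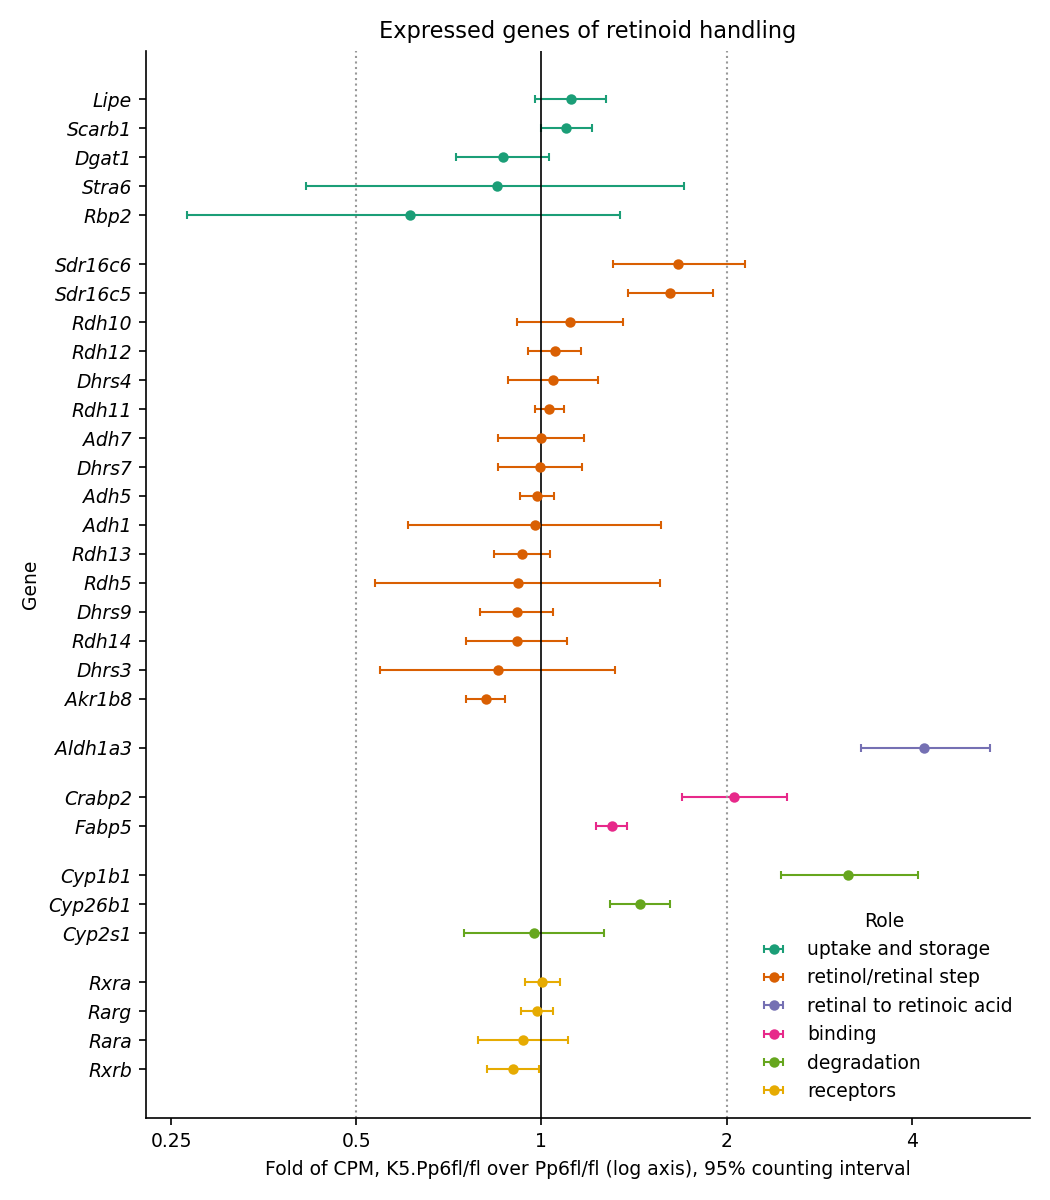
CPM fold with Pp6fl/fl as the base (log axis), for expressed genes of 6 roles, with exact counting intervals (95%) as bars, a line at 1 and dotted lines at 0.5 and 2. Aldh1a3 (4.19), Cyp1b1 (3.16) and Crabp2 (2.06) lie at the right, and the receptors lie between 0.900 and 1.0.

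Crabp2 (ENSMUSG00000004885), which carries retinoic acid to RAR and is itself known to be raised by retinoic acid, was higher in K5.Pp6fl/fl. It had 161 reads (137 to 188) and 298 (265 to 334), or 8.32 and 17.1 CPM, giving a fold of 2.06 (1.70 to 2.51). The intervals of the reads do not overlap. Its log2 ratio with 0.5 CPM added was 1.0, at the edge of the 2-fold rule, and with 2 CPM added it was 0.89 and no longer passed. By FPKM it went from 13.3 to 27.5. Its log2 fold change in the authors' deposited table is 1.04, from the same single library per genotype.

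The 2 other binding protein genes differed in level more than in ratio. Crabp1 had 6 reads in each library. Fabp5 was at 106 and 138 CPM, with a fold of 1.30 (1.23 to 1.38). Its processed pseudogenes Gm6166 and Fabp5l2 can share its reads, and with them summed the fold was 1.47 (1.39 to 1.56). Per length, in FPKM, Fabp5 exceeded Crabp2 11.5 times in Pp6fl/fl and 7.20 times in K5.Pp6fl/fl, so Fabp5 remained the larger in both libraries and by a smaller factor in K5.Pp6fl/fl. Ppard, the receptor that FABP5 serves, was at 152 and 157 CPM, with a fold of 1.03 (0.980 to 1.09).

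Among enzymes that remove retinoic acid, Cyp26b1 was the sole expressed member of its family and stood higher in K5.Pp6fl/fl. It had 559 and 727 reads, or 28.9 and 41.8 CPM, giving a fold of 1.45 (1.29 to 1.62), short of 2-fold. Cyp26a1 and Cyp26c1 had 0 reads in both libraries. The level per length of Cyp26b1 was 3.51 times that of Aldh1a3 in Pp6fl/fl and 1.28 times in K5.Pp6fl/fl. Cyp26b1 and Aldh1a3 were thus nearer to each other in the K5.Pp6fl/fl library. This ratio rests on Aldh1a3, which was selected on its read counts in these libraries, and covers no other enzyme gene. Cyp1b1, a target of the aryl hydrocarbon receptor whose enzyme can also act on retinoids, had 85 and 241 reads, a fold of 3.16 (2.46 to 4.09), and was past the rule. Cyp2s1 was at 0.974 (0.749 to 1.27).

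The receptors were near equal. Rarg, the main RAR of epidermis, was at 121 and 119 CPM, with a fold of 0.984 (0.927 to 1.04). Rara was at 16.1 and 15.1 CPM, with a fold of 0.935 (0.790 to 1.11). Rxra, the main RXR of epidermis, was at 98.0 and 98.3 CPM, with a fold of 1.0 (0.939 to 1.07). The depth of Rarg and Rxra leaves room in their counting intervals for differences of under 10% either way. Rxrb, no member of the 9, was at 47.4 and 42.7 CPM, with a fold of 0.900 (0.816 to 0.992). Rxrg had 0 reads in both libraries. Per length Rarg held 87.4% of the summed FPKM of the RAR genes in Pp6fl/fl and 87.7% in K5.Pp6fl/fl, and Rxra held 52.1% and 53.9% of that of the RXR genes. The makeup of the receptors was therefore alike in the libraries.

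Among genes that share the receptors' machinery none was past 2-fold by CPM, where 1.01% of all expressed genes were in either direction. Of 18 other nuclear receptors, most of them partners of RXR, 12 were expressed and 0 were past 2-fold, with a median log2 ratio of -0.02, and the intervals of 1 lay above 1 and of 3 below. The vitamin D receptor Vdr, Ppard and the oxysterol receptor Nr1h2 were the most abundant, at folds of 1.04, 1.03 and 0.843. Of 17 receptor coregulators 16 were expressed and 0 were past 2-fold, and their log2 ratios ran from -0.15 to 0.26. The intervals of 3 lay above 1 and of 4 below. For both lists the share over all expressed genes was 16.6% above 1 and 17.4% below. The corepressor Ncor1 was at 0.940 (0.900 to 0.983), and its partner Tbl1x was at 0.901 (0.857 to 0.948). Tbl1xr1 was at 1.10 by CPM and at 0.486 by FPKM, so its direction depends on the measure.

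Genes known to rise with retinoic acid lay on both sides. Of 32 listed, 21 were expressed, 12 with a log2 ratio above 0 and 9 below, where 47% of all expressed genes lay above 0, and the median was 0.05. The intervals of 6 lay above 1 and of 3 below, against 16.6% and 17.4% of all expressed genes. Past the rule were 2 higher, Crabp2 and the immediate early factor Egr1 (2.25-fold, 2.01 to 2.52), which many other signals raise, and 1 lower. The lower one was Krt13, a keratin of internal stratified epithelia, with 65 and 21 reads, a fold of 0.360 (0.209 to 0.596). Over all expressed genes, 0.811% were past the rule higher and 0.195% lower. At 0 or nearly so in both libraries were Cyp26a1, Stra8, Hoxb1 and Rarres1. Sox9, Ppard and Tgif1 were the most abundant of the list, at folds of 0.949, 1.03 and 1.05. Dhrs3, a sensitive retinoic acid target in many tissues, was at 0.851 (0.546 to 1.32) as given above. Cyp26b1, also on this list, was at 1.45 (1.29 to 1.62). Hbegf, a growth factor raised by retinoids in epidermis, was at 1.26 (1.10 to 1.44).

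Genes known to be held down by retinoic acid in keratinocytes were mostly higher in K5.Pp6fl/fl, the library with more Aldh1a3 reads. Of 12 listed and expressed, 10 lay above 0 in log2 ratio and the interval of 9 lay above 1, where 47% and 16.6% of all expressed genes did, and the median was 0.41. Loricrin, Lor, was past the rule at 4.55 and 10.7 CPM, with a fold of 2.35 (1.82 to 3.07). The most abundant were Krt16 (1.27-fold, 1.25 to 1.28), Sprr1b (1.16-fold, 1.12 to 1.21) and Dsg1a (1.10-fold, 1.01 to 1.19). Krt10 lay on the other side, at 0.770 (0.659 to 0.899). The list overlaps with terminal differentiation genes, which were already known to be higher in this library, and is no separate line of evidence.

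**Figure D4:**
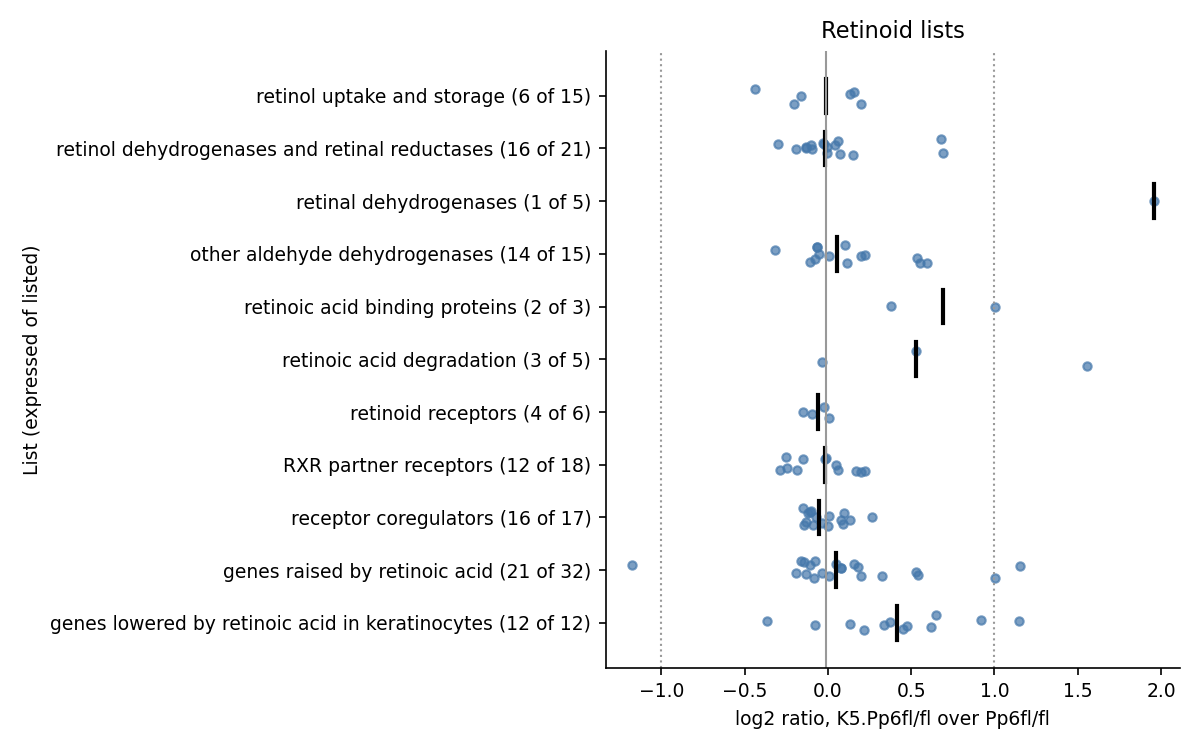
log2 ratio (K5.Pp6fl/fl over Pp6fl/fl, 0.5 CPM added) of each expressed gene in 11 retinoid lists, with the list's median as a black bar, the median of all expressed genes (-0.01) as a grey line and dotted lines at 2-fold. Receptor and coregulator lists lie close to 0, and the genes lowered by retinoic acid lie mostly to the right, with a median of 0.41.

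Over all lists, 100 of 139 retinoid genes were expressed, of which 5 were past 2-fold higher (Aldh1a3, Crabp2, Cyp1b1, Egr1 and Lor) and 1 lower (Krt13), where 0.811% of all expressed genes were higher and 0.195% lower. The lists were chosen with earlier results of these data known, so these counts are a description. Their median log2 ratio was 0.0042. The 3 genes at 5 CPM or more whose log2 ratio lay nearest to that of Aldh1a3 were Gm6166, the pseudogene named above (4.20-fold, 3.46 to 5.14), Tnfrsf11b (4.12-fold, 2.94 to 5.89), which encodes osteoprotegerin, and Bcl2l15 (4.67-fold, 3.60 to 6.11). Likeness here is closeness of 1 ratio between 2 libraries.

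**Figure D5:**
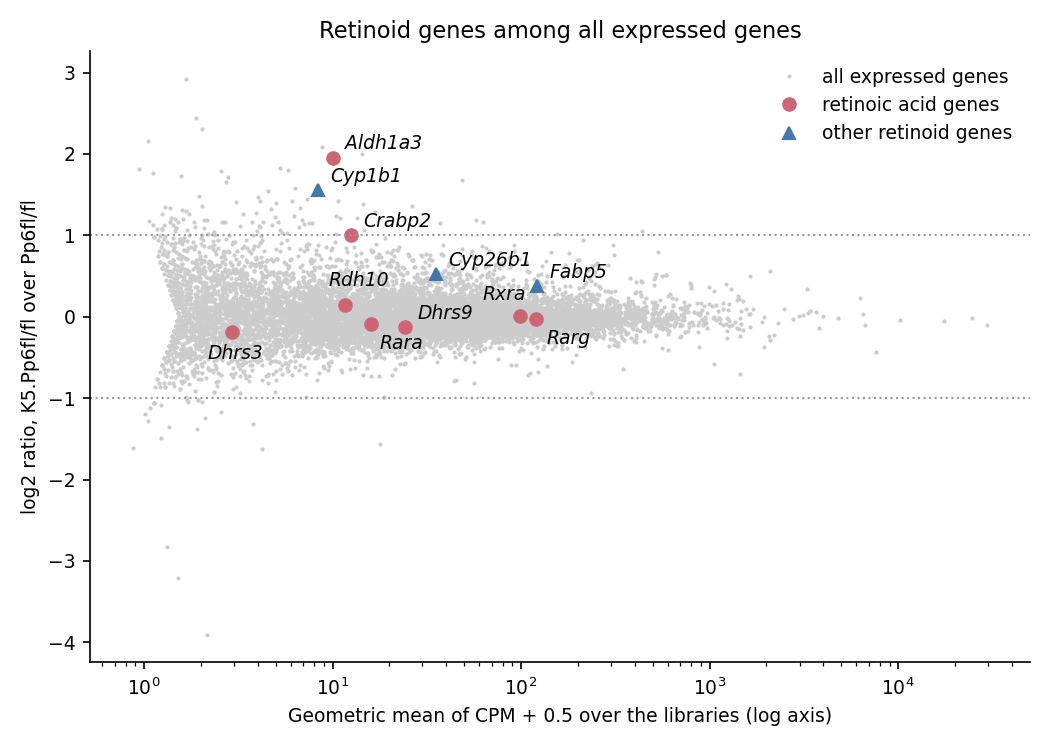
log2 ratio (K5.Pp6fl/fl over Pp6fl/fl) against mean level (geometric mean of CPM + 0.5, log axis) for all 12325 expressed genes (grey), the 8 expressed genes of the retinoic acid set (red) and 3 other retinoid genes (blue triangles), with dotted lines at 2-fold. Aldh1a3 lies near the upper edge of genes of its level at 1.96, and Rarg and Rxra lie near 0.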

How the data were processed

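Polyadenylated RNA of 2 keratinocyte cultures was sequenced with a TruSeq kit, per the labels' protocols, and reads carry no strand. The authors deposited 1 table of estimated counts, FPKM, log2 fold changes, p-values and FDR per gene. Per the submitters' processing notes the tools include RSEM and edgeR and the build is mm8; aligner, annotation and roles: not given in the sources used here. Values deposited as estimated counts are reads times 1 constant per library (0.946 and 1.06). Division by it left 97.3% of values under 100 reads whole in both libraries, within 0.01 reads. Rounded reads were used.

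Symbols were matched by Ensembl ID for 47219 of 47719 rows. CPM used TMM factors (edgeR 4.0.16, R 4.3.3). Folds have exact conditional binomial (Clopper-Pearson) intervals at 95%, and single counts have exact Poisson intervals; reads without molecular identifiers can be copies, so both describe counting alone. The limit at 0 is 3 counts. The code was tested on simulated counts. Promoter windows came from RefSeq (GRCm38.p6); no other coordinates are given, since the builds differ.

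The genes and lists were chosen with earlier results of these data known. Named are all 9 genes; of each list, genes past the rule and the 3 most abundant; all expressed binding, degradation, receptor and ALDH1A genes; and the 3 nearest ratios to Aldh1a3. Of the genes this takes, 1 is not reported here. Others named (Sdr16c5, Sdr16c6, Hbegf, Krt10, Tbl1xr1, and genes at or near 0) were chosen after their values were seen. Alternatives were other scalings (DESeq2 1.42.0 size factors among them), pseudocounts, floors, fold thresholds, unscaled counts and FPKM.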

Additional observations from a re-analysis of the deposited data

How the results depend on the processing

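With 1 library per genotype these limits apply to every value: no spread between cultures is known, and a gene under about 1 CPM rests on some 20 reads or fewer. No paired analysis was possible because each genotype has 1 library and the labels give no replicate numbers. The log2 ratios of the 9 genes were recomputed under 7 settings each, 63 values, of which 61 stayed inside the gene's counting interval. The other 2 were those of Aldh1a3, 1.69 with a pseudocount of 2 CPM and 1.64 by FPKM with 1 added, both still past 2-fold. Crabp2 ranged from 0.89 to 1.03 and was not past the rule with 2 CPM added or by FPKM (0.99), so that 1 of the 9 genes was higher there in place of 2. Over all retinoid lists, 5 genes were higher as reported, 3 with 2 CPM added (Crabp2 and Lor no longer passed) and 11 at a fold threshold of 1.5. The 1 lower gene, Krt13, became 0 with 2 CPM added or a floor of 5 CPM, and by FPKM 2 others, Tbl1xr1 and Ppara, were lower in its place. Larger pseudocounts pull low genes towards 0 by construction. Without the 1 added, the FPKM folds of Aldh1a3 and Crabp2 were 4.19 and 2.07, beside 4.19 and 2.06 by CPM. The cause of the other FPKM differences was not tested. Tbl1xr1 and Ppara lay above 1 by CPM (folds of 1.10 and 1.73, the latter on 9 and 14 reads) and below 1 by FPKM (0.486 and 0.127). Among the 9 genes, neither called value, that of Aldh1a3 or of Crabp2, changed direction. Scaling moved the median log2 ratio of all expressed genes by under 0.02.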
